A study of Setaria viridis with 24 samples.

Results

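The comparison described here is drought against watered in the crown of Setaria viridis at 9 days after sowing, and its members are the 20009 genes that the authors' table for these groups lists, of 20865 genes listed in any of their 28 tables. Setaria viridis is a small C4 grass grown as a model for cereals. The watered and drought groups had 3 libraries each, from 3 biological repeats, and each library pooled the crowns (the lower region of the shoot base) of 20 plants raised in a mix of 25% sand and 75% peat. The other 6 groups used below are the crown at day 6 and the stem (the upper region) at day 6 and day 9, each watered or under drought. No genotype or accession is named in the labels, and for the drought treatment neither severity nor onset was given in the sources used here. Sequencing libraries were made from RNA depleted of ribosomal RNA. Crown and stem labels could not be checked against marker genes, because no identifier in the files is paired with a gene name.

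In grasses, most of the mature root system does not grow from the seed. It is made of crown roots, which emerge from nodes of the crown once the seedling is established, and crown tissue therefore holds shoot base, node and, when they form, root primordia and young roots. Crown roots are known to be held back when the soil around the crown is dry and to grow out when water returns. The comparison asks how gene expression of this region differed between watered and dry conditions at the later of the study's harvests. In pooled tissue, fewer cells of a type and less RNA per cell cannot be told apart.

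Every value given below for a group is the authors' FPKM, a fragment count scaled by transcript length and by a measure of sequencing depth. It summarises the 3 libraries of that group without a standard deviation. A gene is called when the authors' q-value (the adjusted p of their Cuffdiff test) was under 0.05. Log2 fold changes are drought over watered, so a value of 1 is a doubling and negative values are lower under drought. Library values were not analysed here, so whether 1 of the 3 libraries carries a group's value was not tested.

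Among the genes called, more were lower than higher in drought crowns. Of the 20009 genes listed, 1274 were called (6.37%), 440 of them higher (2.20%) and 834 lower (4.17%). The excess of lower genes holds for the calls: of genes at least 2-fold apart with both groups above 0, called or not, 55.1% were lower as deposited, and 45.8% after scaling both groups to equal summed FPKM, where the direction of the split turns. The genes called higher went from a median of 3.80 FPKM in watered crowns to 11.5 FPKM under drought, and those called lower from 17.4 to 5.17 FPKM. The middle 50% of log2 fold changes in the authors' deposited table ran from 1.14 to 1.93 among higher and from -2.19 to -1.09 among lower genes with both groups above 0. Among all genes with both groups above 0 the median was 0.00, with quartiles of -0.27 and 0.28, and 90.3% of the listed genes lay within 2-fold. When p-values were adjusted over these rows only, 868 genes passed (4.34%), of which 265 were higher (1.32%) and 603 lower (3.01%).

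**Figure D1:**
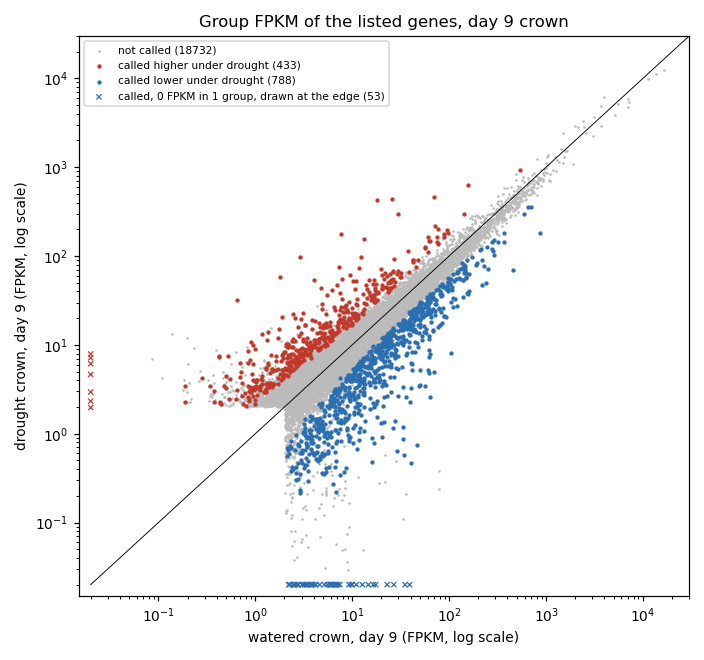
Group FPKM of the listed genes in watered (horizontal axis) and drought (vertical axis) day 9 crowns, both on log scales; red and blue points are genes called higher and lower, grey points are not called, and crosses at the edges are the 53 called genes with 0 FPKM in 1 group. The 788 blue points outnumber the 433 red ones, and grey points lie among the largest falls.

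In terms of transcript amount the falls were also the larger part. The 834 lower genes summed to 31538 FPKM in watered and 12240 FPKM in drought crowns, which is 4.49% and 1.89% of the summed FPKM of all listed genes. The 440 higher genes summed to 4922 and 13957 FPKM, or 0.701% and 2.16%. A change of at least 10 FPKM was reached by 442 lower and 172 higher genes, and one of at least 100 FPKM by 25 lower and 13 higher genes. The 6 largest rises made up 25.9% of the summed rise, whereas the 6 largest falls made up 11.5% of the summed fall.

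The largest rises by fold, among called genes whose higher group reached 12.7 FPKM (the median over listed genes), were seen in other drought groups too for most of the genes named. Sevir.7G029400 (chromosome 7, 9224001 to 9227104) had 0.649 FPKM in watered and 32.4 FPKM in drought day 9 crowns, or 5.64 on the log2 scale (q = 0.00091, both per the authors' deposited table). Its other drought groups were the day 6 crown with 9.44 FPKM, the day 6 stem with 4.40 and the day 9 stem with 9.51, while every watered group was at or below 0.649. All 4 drought values were thus above all 4 watered values. The same separation held for Sevir.1G012100 (chromosome 1, 939299 to 946263), with watered groups from 11.9 to 25.7 FPKM and drought groups from 110 to 435 FPKM. The day 9 crown rise was 4.08 on the log2 scale (q = 0.00167, both per the authors' deposited table).

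Sevir.5G302500 (chromosome 5, 34362836 to 34363959) stood between 5.53 and 7.58 FPKM in the 4 watered groups. Under drought it stood at 21.6 and 51.9 FPKM in crown and stem at day 6, and at 179 and 232 FPKM at day 9. Sevir.2G223700 (chromosome 2, 30657716 to 30658958) was low in both day 6 drought groups, with 4.87 FPKM (crown) and 3.63 FPKM (stem), and reached 53.8 and 48.2 FPKM at day 9, with 4.03 FPKM in watered day 9 crowns. By the authors' deposited tables its log2 rise was 3.74 in the day 9 crown (q = 0.00091) and its day 6 crown value was 0.86 (q = 0.295). Sevir.1G333300 (chromosome 1, 37735832 to 37736979) and Sevir.5G129100 (chromosome 5, 10549762 to 10550727) rose by log2 values of 3.48 and 3.45, per the authors' deposited table, to 13.2 and 20.6 FPKM. Of these, Sevir.5G129100 was higher in drought crowns at day 6 (43.7 FPKM) than at day 9. The remaining 4 of the 10 named rises are neighbours on chromosome 5 and are described with the other runs of genes.

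**Figure D2:**
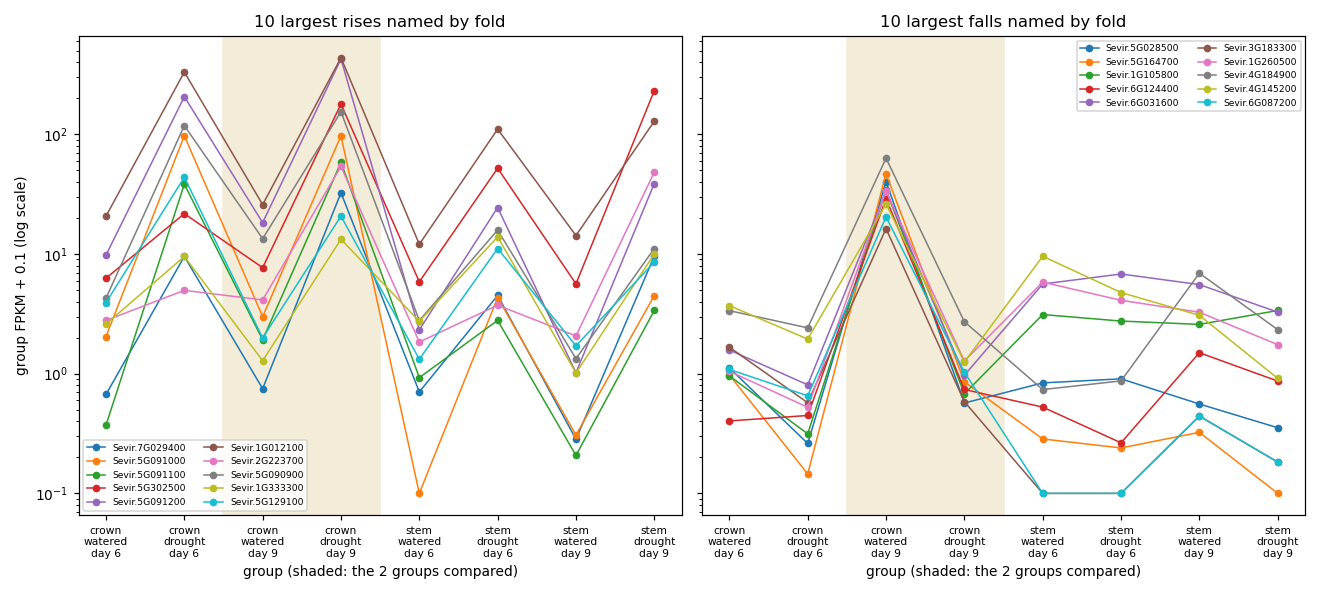
Group FPKM plus 0.1 on a log scale in all 8 groups for the 10 largest rises (left) and the 10 largest falls (right) named by fold; each colour is a gene, the lines only join its values, and the shaded band marks the groups compared. The rises are high in most drought groups, while the falls peak in the watered day 9 crown, between 16.2 and 63.0 FPKM.

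Counted in FPKM rather than by fold, the largest rise was that of Sevir.5G140200 (chromosome 5, 11886102 to 11887256), which went from 155 to 635 FPKM (log2 2.03 and q = 0.00091 per the authors' deposited table). Its stem values at day 9 were 55.8 FPKM watered and 83.0 FPKM under drought (log2 0.57 and q = 0.181 per the authors' deposited table). Sevir.2G448800 (chromosome 2, 47310796 to 47311782) rose from 69.7 to 459 FPKM in the crown, and stood at 40.7 and 70.5 FPKM in the stem. Sevir.5G107400 (chromosome 5, 8589094 to 8589929) was the scarcest of these in stems. Its day 9 crown values were 29.8 and 295 FPKM (log2 rise 3.31 and q = 0.00091 per the authors' deposited table) and its stem values on that day 4.07 and 4.08 FPKM, watered and drought. At day 6 it stood at 4.89 FPKM in watered and 39.9 FPKM in drought crowns. Whether the response of these genes differed between crown and stem was not tested. Sevir.1G163900 (chromosome 1, 22670493 to 22671048) had 543 FPKM watered and 933 FPKM under drought (log2 0.78 and q = 0.0435 per the authors' deposited table), and did not pass when the table was adjusted alone (q = 0.103).

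The 10 largest falls by fold had a different pattern over the groups. In watered day 9 crowns they stood between 16.2 and 63.0 FPKM, with a median of 33.4. In drought day 9 crowns they stood between 0.469 and 2.62 FPKM, and in watered day 6 crowns, 3 days earlier, between 0.303 and 3.60. The stem values of these genes were at most 9.47 FPKM in any group. Each of the 10 thus had its highest value in watered crowns at day 9. They were chosen for a large fall and for reaching 12.7 FPKM in the higher group, which they did in watered day 9 crowns. A peak in that group is therefore partly a result of the choice, although the values of the other 6 groups did not enter it.

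Sevir.5G028500 (chromosome 5, 2059345 to 2061055) went from 40.1 to 0.469 FPKM in day 9 crowns, or -6.42 on the log2 scale (q = 0.0096, both per the authors' deposited table), and had at most 1.02 FPKM in the other 6 groups. Sevir.5G164700 (chromosome 5, 15658499 to 15660216) had 46.8 FPKM watered and 0.755 under drought (log2 -5.95 and q = 0.00091 per the authors' deposited table), with at most 0.876 FPKM elsewhere. For Sevir.6G124400 (chromosome 6, 20449012 to 20449999) the values were 29.0 and 0.638 FPKM, and for Sevir.6G087200 (chromosome 6, 8094966 to 8096484) 20.3 and 0.930 FPKM. Others among the 10 were also present in the stem at a few FPKM. Sevir.1G105800 (chromosome 1, 9010739 to 9015624) went from 34.1 to 0.578 FPKM in the crown and stood at 2.48 and 3.27 FPKM in watered and drought day 9 stems. Sevir.6G031600 (chromosome 6, 2515342 to 2516753) went from 33.4 to 0.870 FPKM, with stem values from 3.17 to 6.71 FPKM.

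Sevir.4G184900 (chromosome 4, 27616667 to 27621153) had the highest level of the 10 in watered crowns. It fell to 2.62 from 63.0 FPKM there, and to 2.23 from 6.81 FPKM in the day 9 stem, by log2 values of -4.59 (q = 0.00091) and -1.61 (q = 0.00679) per the authors' deposited tables. Sevir.1G260500 (chromosome 1, 32481264 to 32482352), Sevir.4G145200 (chromosome 4, 18984579 to 18986330) and Sevir.3G183300 (chromosome 3, 13263951 to 13269228) completed the 10, with -4.83, -4.50 and -5.06 on the log2 scale per the authors' deposited table. All 10 passed when the table was adjusted alone.

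Over the whole table, 134 listed genes stood at least 8-fold higher in the watered day 9 crown than in each of the other 7 groups, and 14 did so in the drought day 9 crown. All listed genes had at least 1.97 FPKM in the higher of the 2 day 9 crown groups. The 134 had a median of 0.266 FPKM in their highest other group. Both counts are thus partly a result of which genes are listed, and no such count was made for the other 6 groups. Of the 134, 76 were called lower under drought, 42 of them with 0 FPKM in drought crowns and 34 above 0. The 34 had a median of 16.4 FPKM in watered day 9 crowns. Among them, chosen after their values were seen, Sevir.5G028400 (chromosome 5, 2049680 to 2051384), the listed neighbour of Sevir.5G028500, had the highest level, at 105 FPKM against 8.04 FPKM under drought and at most 5.59 FPKM in the 6 other groups. Sevir.6G223800, Sevir.6G181100 and Sevir.8G027600, likewise chosen after their values were seen, had 70.3, 60.9 and 56.0 FPKM in watered and 4.97, 5.26 and 3.47 FPKM in drought day 9 crowns. The other 58 of the 134 were not called, with q-values between 0.0502 and 0.547 and a median of 5.03 FPKM.

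Large changes with both groups above 0 were called less often than moderate ones, in both directions. Of genes lower under drought, 164 of 203 that were 4 to 8-fold apart were called, 61 of 92 that were 8 to 16-fold apart, and 21 of 79 that were 16-fold or more apart with both groups above 0. Among rises the counts were 68 of 116, 22 of 40 and 9 of 21 in the same classes. Over all 28 tables and both directions, 83.2%, 74.3% and 36.0% of rows in these classes were called, so the pattern is not particular to this comparison. The 4 genes of the naming rule with the largest fold and no call were all falls of 16-fold or more. Sevir.8G230200 stood at 78.8 FPKM in watered and 0.236 FPKM in drought crowns (log2 -8.38 and q = 0.519 per the authors' deposited table), and Sevir.7G205000 at 79.6 and 0.377 FPKM (log2 -7.72 and q = 0.237 per the authors' deposited table). Sevir.8G230100 had 33.4 and 0.110 FPKM, and Sevir.1G124400 13.0 and 0.0495 FPKM. In the other 6 groups these 4 genes had at most 1.17 FPKM.

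Genes listed at 0 in 1 group were called almost without exception, whatever their level in the other. Of 47 genes at 0 FPKM in drought crowns, 46 were called, with 2.21 to 39.1 FPKM in watered crowns, and of 9 at 0 in watered crowns 7 were called, with 1.97 to 7.89 FPKM under drought. Over all 28 tables, 92.3% of 2028 rows with a group at 0 were called and 85.7% had the smallest p-value the tables hold, against 36.0% and 19.1% of 5299 rows that were 16-fold or more apart with both groups above 0. Without genes at 0, 1221 genes (433 higher, 788 lower) were called. The 4 with the highest level in watered crowns were Sevir.7G260100 (chromosome 7, 29679063 to 29679984) at 39.1 FPKM, Sevir.5G125500 (chromosome 5, 10257091 to 10259235) at 35.1, Sevir.7G042400 (chromosome 7, 11179706 to 11180012) at 26.9 and Sevir.J013500, on an unplaced scaffold, at 23.0 FPKM. Their values in the other 6 groups were at most 0.761 FPKM.

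**Figure D3:**
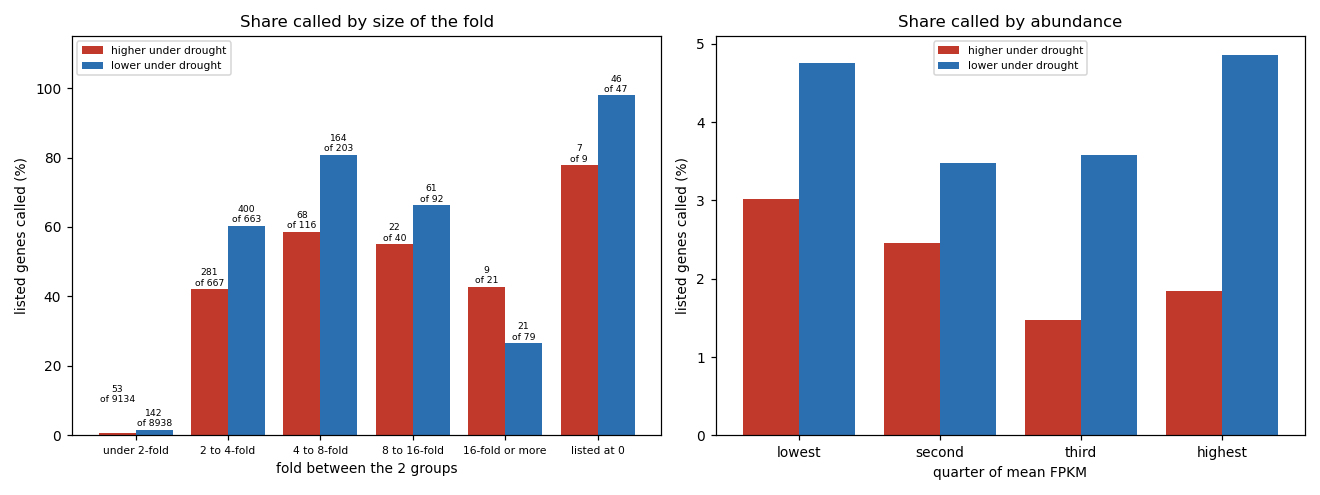
Percent of listed genes that were called, by size of the fold between watered and drought day 9 crowns (left, with counts above the bars) and by 25% bins of the mean FPKM of both groups (right); red is higher and blue lower under drought. Among lower genes the share called falls from 80.8% at 4 to 8-fold to 26.6% at 16-fold or more and is 97.9% for genes listed at 0. Among higher genes the same shares are 58.6%, 42.9% and 77.8%.

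The 6 largest falls counted in FPKM were in genes with at least 364 FPKM in watered crowns. Sevir.3G015100 (chromosome 3, 887287 to 888522) led them, going from 857 to 183 FPKM (log2 -2.22 and q = 0.00091 per the authors' deposited table). It also fell in the day 6 crown, from 1200 to 532 FPKM, and in the day 9 stem, from 990 to 368 (log2 -1.17 with q = 0.0101, and -1.43 with q = 0.0134, per the authors' deposited tables). Sevir.1G264300 (chromosome 1, 32706781 to 32707949) fell from 462 to 70.0 FPKM in day 9 crowns and stood at 16.2 and 22.1 FPKM in watered and drought day 9 stems. In the day 6 stem it rose under drought, from 20.5 to 41.9 FPKM (log2 1.03 and q = 0.0114 per the authors' deposited table). Sevir.7G078500 (chromosome 7, 16500135 to 16503391) and Sevir.8G045500 (chromosome 8, 3519114 to 3520029) fell from 593 to 297 and from 707 to 358 FPKM. Sevir.1G225700 (chromosome 1, 29484459 to 29487810) fell from 364 to 145 FPKM. The fall of Sevir.8G260100 (chromosome 8, 39686635 to 39687629), from 654 to 359 FPKM, had q = 0.0437 in the authors' deposited table and did not pass with the table adjusted alone (q = 0.103).

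Taken over all called genes, the levels in the other groups were as follows. For the 834 lower genes the watered day 9 crown had a median of 17.4 FPKM, and the 7 other group medians lay between 3.33 FPKM (drought day 9 stem) and 6.84 FPKM (watered day 9 stem). The drought day 9 crown, at 5.17 FPKM, lay close to the watered day 6 crown at 6.19. The watered day 9 crown was the highest of the 8 groups for 578 of the 834 genes (69.3%), against 18.8% of all listed genes, and the watered day 6 stem for 189 (22.7%, against 21.5%). Since the genes were chosen for a high watered day 9 value, the first of these shares is partly a result of that choice. For the 440 higher genes the median was 11.5 FPKM in the drought day 9 crown, between 3.57 and 4.59 FPKM in the 3 other crown groups and between 1.69 and 2.80 FPKM in the stem groups. The drought day 9 crown was the highest group for 383 of them (87.0%, against 23.2% of all listed genes), a share that the choice of genes with a high drought day 9 value partly fixes in the same way.

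Set against watered crowns of both days, 517 of the 834 lower genes (62.0%) were lower in drought day 9 crowns than in watered crowns at day 6 and at day 9. The other 317 (38.0%) lay between the 2 watered values, so that drought crowns had more than watered day 6 crowns and less than watered day 9 crowns. Among the 440 higher genes, 435 stood above both watered values and 5 between them. These positions use the watered day 9 value that also defined the calls, and carry no test.

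**Figure D4:**
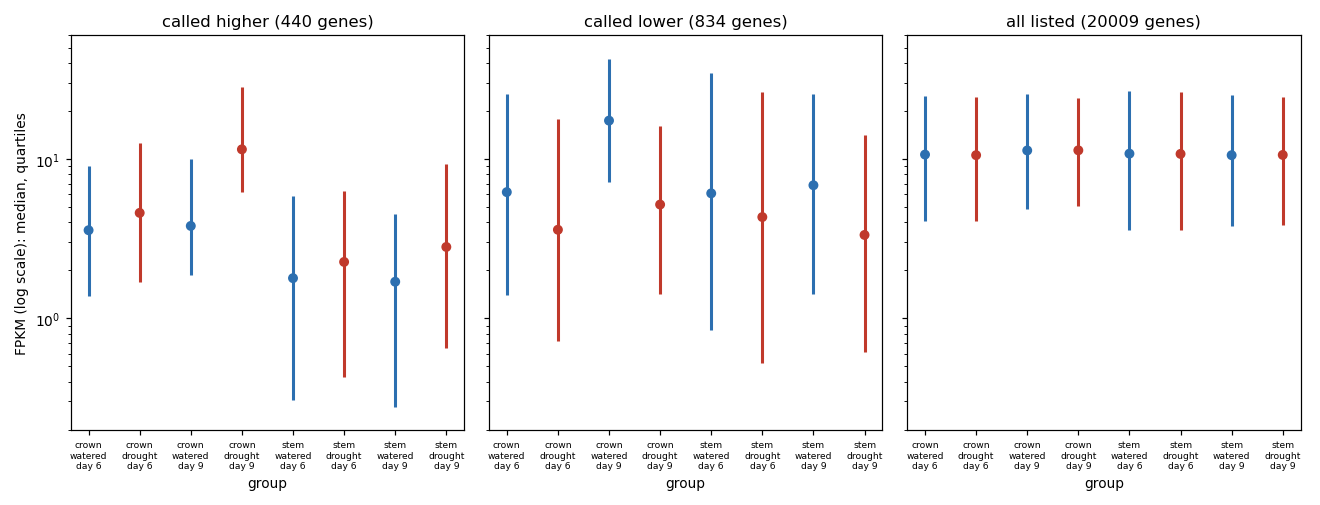
Median (point) and quartiles (line) of FPKM on a log scale in each of the 8 groups, for the 440 genes called higher, the 834 called lower and all 20009 listed; blue groups are watered and red groups under drought. The called genes depart most from the other groups in the drought day 9 crown (higher, 11.5 FPKM) and the watered day 9 crown (lower, 17.4 FPKM), while the medians of all listed genes stay between 10.6 and 11.3 FPKM.

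The day 9 stem comparison has no library in common with that of the crown, but comes from the same repeats. Of 49 genes that rose less than 2-fold in the day 9 crown and were listed for the day 9 stem, 11 were called higher there. Of 170 that rose 2 to 4-fold, 32 were called higher there (18.8%, where 1.26% of all listed genes were). Of 26 that rose 4 to 8-fold, 18 were called higher (69.2%), and of 16 that rose by 8-fold or more with both groups above 0, 9 were. Differences between these classes were not tested. Among the falls, 33 of 140 genes under 2-fold were called lower in the stem (23.6%). Of 325 genes that fell 2 to 4-fold, 145 were called lower in the stem (44.6%, where 2.37% of all listed genes were, or 3.63% in either direction), of 95 that fell 4 to 8-fold 43 (45.3%), and of 23 that fell 8 to 16-fold 2 (8.70%). For the falls of 16-fold or more, 6 of 21 genes were listed in the stem table and 2 of the 6 were called lower, and none of the 46 at 0 under drought was. Genes that are not listed for the stem have no stem test.

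Of the genes listed for the day 6 crown, 3 of 53 that rose less than 2-fold at day 9 were called higher at day 6, and 18 of 212 that rose 2 to 4-fold were (8.49%, where 0.500% of all listed genes were, or 2.08% in either direction), 13 of 37 that rose 4 to 8-fold, 8 of 12 at 8 to 16-fold and 6 of 8 at 16-fold or more. Among the falls, 17 of 142 under 2-fold (12.0%) and 85 of 332 at 2 to 4-fold were called lower at day 6 (25.6%, where 1.58% of all listed genes were), 35 of 90 at 4 to 8-fold and 6 of 17 at 8 to 16-fold. Of the 21 genes that fell 16-fold or more, 4 were listed at day 6 and 0 of these was called by the authors' Cuffdiff test.

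In the day 6 stem, where 1.44% of listed genes were called (0.528% higher, 0.916% lower), 13 of 147 listed genes that rose 2 to 4-fold in the day 9 crown were called higher and 21 of 310 that fell 2 to 4-fold were called lower. Of those 4 to 8-fold apart, 7 of 28 rises and 8 of 81 falls were called there in the same direction. At 8 to 16-fold these were 5 of 7 rises and 1 of 17 falls. At 16-fold or more with both crown groups above 0, they were 5 of 6 rises and 0 of 5 falls.

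A few genes went opposite ways. At day 6, 7 of the 440 genes called higher in drought day 9 crowns were called lower in drought crowns. Of all genes listed for the day 6 crown, 1.58% were called lower, so 7 of 440 is close to the share over all genes. Not all of the 440 were listed there, and whether the count departs from that share was not tested. The medians of the 7 were 7.05 FPKM in watered and 2.55 FPKM in drought crowns at day 6, and 7.59 and 26.9 FPKM at day 9. Sevir.8G121100 had the widest swing, from 3.58 to 0.363 FPKM at day 6 and from 8.44 to 26.9 FPKM at day 9, or -3.30 (q = 0.0337) and then 1.67 (q = 0.00091) on the log2 scale per the authors' deposited tables. Sevir.9G555500 stood at 5.78 and 1.05 FPKM at day 6 and at 4.15 and 18.4 FPKM at day 9, and its neighbour by number, Sevir.9G555600, at 3.91 and 1.06, then 7.06 and 15.3 FPKM. Sevir.5G290900 and Sevir.2G290100 stood at 26.9 and 11.4 FPKM in drought day 9 crowns. The most abundant were Sevir.9G333100, at 94.0 and 194 FPKM in watered and drought day 9 crowns, and Sevir.9G332400, at 74.3 and 162 FPKM. With the table adjusted alone, 4 of the 7 kept a day 9 call, and Sevir.9G332400, Sevir.9G333100 and Sevir.9G555600 did not. Whether the response differed between days was not tested, since library values are needed for that.

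Against the stem, 2 of the 834 genes called lower in drought crowns at day 9 were called higher in drought stems. Of all genes listed for the day 9 stem, 1.26% were called higher, and not all of the 834 were listed there. Sevir.9G542800 went from 13.3 to 1.07 FPKM in the crown, and from 0.421 to 3.31 FPKM in the stem. Sevir.8G210100 went from 59.8 to 30.5 FPKM in the crown, a call that was lost when the table was adjusted alone (q = 0.0950), and from 67.5 to 142 FPKM in the stem.

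Some called genes were adjacent in the order of listed genes along a chromosome, where genes that are not listed can lie between them. Among 19950 pairs of genes adjacent in the table, 108 were both lower, 35 both higher and 38 opposite. Over all listed genes, 4.17% were called lower and 2.20% higher. Whether the pair counts differ from what these shares alone would give was not tested. Runs of 3 or more adjacent genes called in 1 direction numbered 24 and held 79 genes, 60 of them lower (18 runs) and 19 higher (6 runs). With the table adjusted alone there were 11 such runs. No gene in a run shares its position entry with another gene. Reads of near-identical neighbours could be split between them in counting, and the authors' handling of such reads was not given in the sources used here.

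Longest was a run of 6 lower genes on chromosome 9 (38660698 to 38684857), from Sevir.9G351100 to Sevir.9G351800. In order along the chromosome they stood at 6.90, 3.77, 5.82, 10.5, 17.0 and 13.1 FPKM in watered crowns and at 1.66, 0, 1.97, 1.75, 5.11 and 2.97 FPKM under drought. All 6 had their highest value in the watered day 9 crown, and their stem values were at most 1.26 FPKM. Of the 6, Sevir.9G351100 and Sevir.9G351400 did not pass with the table adjusted alone. Near its end, Sevir.9G352000 (38693188 to 38694497), chosen after its values were seen, fell from 48.7 to 3.47 FPKM, while Sevir.9G351900 between them stood at 2.49 and 2.08 FPKM (q = 0.869 in the authors' deposited table). On the other side, Sevir.9G350900 was called higher, at 5.29 and 16.4 FPKM.

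The run with the largest rises lay on chromosome 5 (7304309 to 7320228). Sevir.5G090900, Sevir.5G091000, Sevir.5G091100 and Sevir.5G091200 stood at 13.3, 2.89, 1.82 and 18.2 FPKM in watered and at 154, 97.0, 58.1 and 426 FPKM in drought day 9 crowns. Drought crowns at day 6 had 118, 97.2, 38.2 and 206 FPKM, and drought stems at day 9 had 11.0, 4.39, 3.28 and 38.7 FPKM. Watered crowns at day 6 had 4.17, 1.94, 0.272 and 9.68 FPKM, and watered stems at day 9 had 1.24, 0.207, 0.107 and 0.919 FPKM. By the authors' Cuffdiff test, Sevir.5G091100 was called in neither the day 6 crown (q = 0.477) nor the day 9 stem (q = 0.415). Sevir.5G091000 was not called in the day 9 stem (q = 0.381). The genes listed on either side, Sevir.5G090800 and Sevir.5G091300, stood at 31.4 and 39.7 and at 4.46 and 4.92 FPKM in watered and drought crowns, with q-values of 0.623 and 0.928 in the authors' deposited table.

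A run of 4 lower genes on chromosome 8 (11140389 to 11231529) held genes of very different levels. Sevir.8G094800 fell from 276 to 120 FPKM, and stood at 149 and 89.2 FPKM in watered and drought day 9 stems. Sevir.8G094500, Sevir.8G094900 and Sevir.8G095000 went from 10.7 to 1.25, from 7.77 to 1.91 and from 48.3 to 9.47 FPKM, with stem values of at most 0.287 FPKM. The call of Sevir.8G094500 was lost with the table adjusted alone (q = 0.0607).

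**Figure D5:**
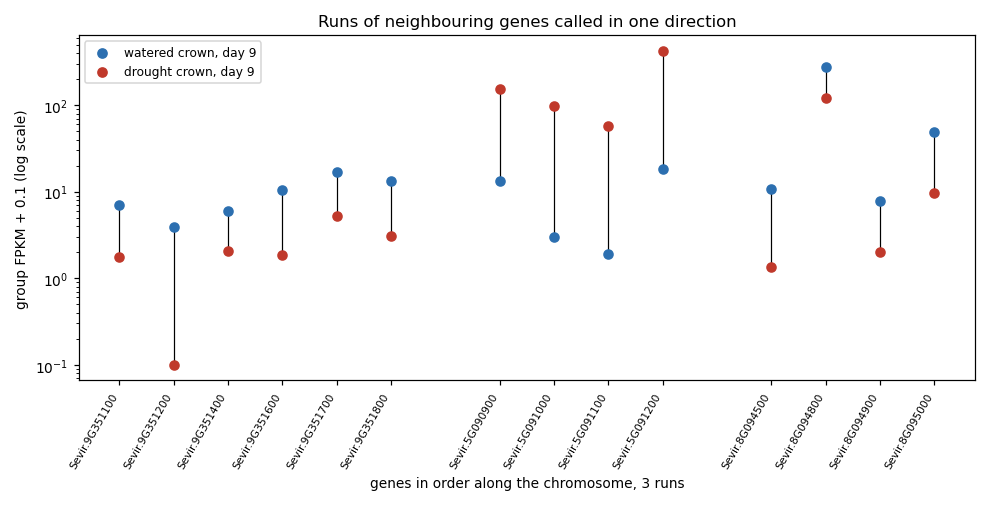
Group FPKM plus 0.1 on a log scale in watered (blue) and drought (red) day 9 crowns for the members of 3 runs of neighbouring called genes, in order along the chromosome, from left to right on chromosomes 9, 5 and 8. The chromosome 5 genes reach 58.1 to 426 FPKM under drought, and those of the other runs are lower under drought throughout.

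The balance of rises and falls changed with abundance. Of the 25% of listed genes with the lowest mean FPKM, 3.02% were called higher and 4.76% lower, and of the 25% with the highest mean 1.84% and 4.86%. In the 2 bins between, 2.46% and 1.48% were called higher and 3.48% and 3.58% lower. From the lowest to the highest bin, lower genes thus made up 61.2%, 58.6%, 70.8% and 72.5% of calls, which is not a steady change. The share called lower was similar in the lowest and highest bins, and the share called higher was smaller in the highest. The median log2 fold change of all listed genes also moved with abundance, from 0.18 in the lowest to -0.12 in the highest bin. The part of this median in the balance of calls was not tested. Summed over the table, FPKM came to 701820 in watered and 647223 in drought crowns. Scaling both to an equal sum would raise every log2 fold change by 0.12, which turns the direction of none of the genes named here.

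Called genes spanned less of the genome than others. The median distance from start to end of the gene, introns included, was 2232 bases for lower, 2568 for higher and 3724 for uncalled genes. In the highest bin of mean FPKM the medians were 2275, 1722 and 3867 bases. In the lowest bin the higher genes did not follow this, at 3094 bases against 2873 for uncalled ones.

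Calls were spread over all 9 chromosomes. The share of listed genes called ran from 5.31% on chromosome 1 to 9.37% on chromosome 8, beside 6.37% over the table. Chromosome 8 had the highest shares of both directions among the chromosomes, with 3.80% higher (43 of 1131 genes) and 5.57% lower (63 genes). Of 65 listed genes on scaffolds, 2 were called higher and 9 lower.

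The most abundant transcripts were not among the calls. Sevir.9G098200 (16686 FPKM in watered and 12564 in drought crowns), Sevir.7G168800 (13619 and 11261), Sevir.9G029800 (11384 and 9732), Sevir.1G218900 (7252 and 5421) and Sevir.9G035700 (6962 and 5838) all had lower FPKM under drought, with log2 fold changes from -0.42 to -0.23 and q-values from 0.644 to 0.932 in the authors' deposited table. Of these, Sevir.7G168800 and Sevir.9G035700 share their position entry with other genes, and Sevir.9G029800 overlaps another gene, so that reads may be divided between them. At the other end, the smallest changes that were called, among genes whose higher group reached 12.7 FPKM, were falls of Sevir.7G078900 (136 to 83.2 FPKM), Sevir.1G169400 (49.5 to 30.1), Sevir.2G069800 (38.7 to 23.4) and Sevir.8G089200 (16.3 to 9.79). Their log2 fold changes lay between -0.74 and -0.71 in the authors' deposited table, and none of the 4 passed with the table adjusted alone.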

How the data were processed

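FastQC, cutadapt and Cuffdiff were used, per the submitters' processing notes, and per the labels' protocols the libraries keep strand. Aligner, genome build and use of strand in counting were not given in the sources used here. Deposited by the authors were FPKM per group, a log2 fold change, and a p-value and q-value per gene, per the file headers. Read depth per library is unknown. Group FPKM were the same in all tables (0 differing values). The q-values equal a Benjamini-Hochberg adjustment over 531416 rows of 28 tables jointly, within 5.3e-07, so the false call rate of this table by itself is not controlled. Called genes of the authors' Cuffdiff test had p-values up to 0.00735, and up to 0.00215 with the table adjusted alone. Calls were counted from the deposited values with Python 3.11.15 and pandas 2.3.3, and the adjustment was tested on simulated data. Matching to the 34587 genes of the RefSeq table gave 0 hits, so genes carry no names, roles or sequences, and the planned gene families were not counted. The rule named the 10 largest rises and falls by log2 fold change, the 6 by FPKM, the 4 highest genes at 0, 3 runs, the 5 most abundant genes, opposite calls, and the 4 smallest called and 4 largest uncalled changes. Members and lists were chosen with earlier results of these data known. Positions are the files' own. The labels call the repeats biological, and do not say how separately they were grown.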

Additional observations from a re-analysis of the deposited data

How the results depend on the processing

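The number of calls depended on the limit. At q under 0.01, 661 genes passed (192 higher, 469 lower, 71.0% lower), with medians of 1.71 and -1.83 on the log2 scale. Adjusted within the table, 265 higher genes passed, 69.5% of calls were lower, and the medians were 1.60 and -1.72. Where the higher group reached 10 FPKM, 802 genes passed (244 higher, 69.6% lower), and at or above the median mean FPKM 588 (166 higher, 422 lower, 71.8% lower). The share lower rests on the calls: of genes at least 2-fold apart and above 0 in both groups, 55.1% were lower without the test and 55.1% after centring on the median gene. After scaling to equal summed FPKM, chosen after seeing the data, it was 45.8%, the other way round, and the medians of called genes were 1.53 and -1.38. With a pseudocount of 1 the medians were 1.17 and -1.27. Runs numbered 11 within the table. Binned by the higher group's FPKM instead of the mean, the lowest 25% of genes held 154 lower genes. Called genes held 5.20% of summed FPKM watered and 4.05% under drought, and 5.87% and 4.54% without the 10 most abundant genes. Of 58 results under an alternative, 30 were classed as the same, 27 as moved and 1 as reversed. The first of these classes was broad, and it held the drop from 1274 to 868 calls with adjustment within the table. Of the genes named by the rule, 13 lost their call within the table and 0 changed sign. Apart from what each alternative leaves out, the cause was not tested. No paired analysis was possible because the tables hold 1 value per group, and leaving out a repeat could not be run for the same reason.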
